A study of Danio rerio with 2 samples.

Results

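The mitochondrial respiratory chain genes are 82 of the 12307 genes with a ratio on these arrays. They were taken by name: every gene whose symbol starts with nduf, sdha to sdhd, uqcr, cox4 to cox8 or atp5. The reference gene table holds 109 such genes, of which 82 had at least 1 array probe assigned through its RefSeq accession and 27, among them *ndufs3*, *uqcrfs1*, *cox4i1* and *cox8a*, were not analysed here. The name rule uses no measured value. Of the 82 genes, 73 encode structural subunits (32 of complex I, 5 of complex II, 6 of complex III, 15 of complex IV and 15 of complex V), 7 encode assembly factors and 2 encode inhibitors of the ATP synthase.

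The respiratory chain is the set of protein complexes in the inner mitochondrial membrane that passes electrons from NADH and succinate to oxygen. Complexes I, III and IV pump protons during this transfer, complex II feeds electrons from succinate into the chain, and complex V, the ATP synthase, uses the proton gradient to make ATP. Most subunits are encoded in the nucleus and must be made in step with a small set encoded by mitochondrial DNA. The 13 subunits of mitochondrial DNA were not analysed here. In a fish larva, muscle, heart, brain, photoreceptors and the ionocytes of the skin are rich in mitochondria.

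RNA came from zebrafish at 3 dpf that had been injected at the 1-cell stage with a control morpholino (Ctrl MO, 8 ng) or with one against mature *miR-132* (*miR-132* MO, 8 ng), morpholinos being synthetic antisense molecules that bind an RNA and keep it from acting. The embryos of both groups had their chorions removed with pronase and were kept in Hanks' solution, to which the study's methods add phenylthiourea to block pigment, and the labels give the tissue as embryos with no dissection, so a signal is a sum over cell types. Each group was 1 one-colour Agilent array, both on the same slide, so no value has a replicate error and no test is given. The fish line used for the arrays and the number of larvae in each RNA sample were not given in the sources used here, and the level of *miR-132* itself was not analysed here. All levels are log2 processed intensity relative to the 75th percentile of the array, and all ratios are log2 of the *miR-132* MO signal over that of Ctrl MO.

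The 75th percentile of intensity was 731 for Ctrl MO and 866 for *miR-132* MO, with 88.0% and 80.3% of transcript spots well above background. All 140 probes of the 82 genes were well above background on both arrays and 0 were saturated, so no ratio of these genes is a bound. Among 25 probes printed on 5 spots each, the log2 ratio of single spots had a median SD of 0.10. Among the 41 genes with 2 or more probes, the pooled SD of the log2 ratio between probes of the same gene was 0.16. Both describe spread within these arrays and not the spread between pools of larvae. The spread between probes is not noise alone, since the ratio also differed with probe brightness, as described below.

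Respiratory chain genes were slightly lower in *miR-132* morphants, as a group and in each of the 5 complexes. Of the 82 genes, 71 (86.6%) had a ratio below 0, against 49.9% of all genes. Their median ratio was -0.15, a 1.11-fold lower signal, and the median over all genes was 0.00. The middle of the distribution was narrow, with quartiles at -0.25 and -0.080. Of the 140 probes, 115 were below 0. In the 41 genes with 2 or more probes, all probes lay below 0 in 28 genes, on both sides in 9 and above 0 in 4. In whole larvae, fewer cells of a type and less RNA per cell cannot be told apart.

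Few of these genes passed 1.5-fold. None was higher by that much, against 3.96% of all genes, and 3 were lower, against 7.64% of all genes. The 3 were *ndufs8b*, *cox6a2* and *ndufa8*. Their share of 82 genes is below the share among all genes, where ratios spread more, with a pooled SD of 0.33 between probes of one gene. Among genes with a mean level of 3 or more, 1 of 55 members and 30 of 574 other genes were lower by 1.5-fold. The shift of the group was one of many small differences of the same sign and not of a few large ones. The nearest genes inside 1.5-fold were *ndufa2* at -0.44, *ndufab1a* and *ndufb2* at -0.42, and *atp5if1a* and *atp5l* at -0.41.

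**Figure D1:**
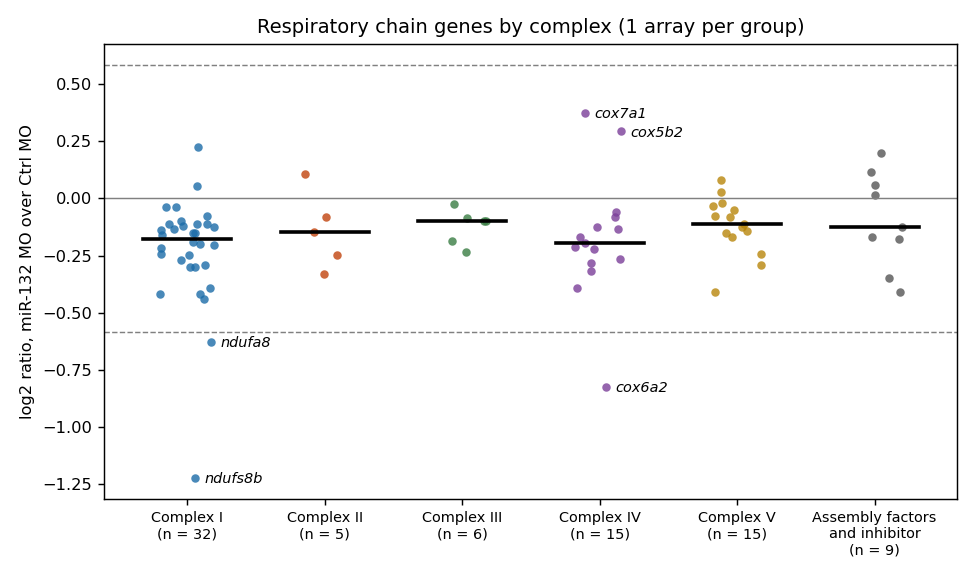
Ratio (log2, *miR-132* MO to Ctrl MO) for each respiratory chain gene (points, mean of its probes), grouped by complex, with assembly factors and inhibitors last; the bar is the median of the group, dashed lines mark 1.5-fold and each group is 1 array. The medians of the 5 complexes lie between -0.20 and -0.10, and *ndufs8b*, *cox6a2* and *ndufa8* lie beyond the lower dashed line.

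Other genes with equally strong signals did not show the shift. Of the 82 genes, 55 had a mean level of 3 or more on the log2 scale, and 52 of these were below 0, with a median of -0.14. The other 574 genes at that level had a median of 0.0052, with 49.1% below 0. Among the 27 members under that level, 19 were below 0, with a median of -0.16. Ribosomal protein genes of the cytosol, a further large set of strongly expressed genes for subunits of a single machine, had a median of -0.0076, with 42 of 77 below 0 (a set picked with values already in view). The distance of the median from 0 depended on the processing. Its difference from the median of all genes was -0.15 in the main setting, -0.14 with spike-in scaling and -0.092 with normexp. With spike-in scaling the median of the 82 genes was -0.087 and 64 were below 0, while the median of all genes was 0.049 and 41.3% of them were below 0. With normexp background correction 60 were below 0 and the median was -0.13, beside -0.041 for all genes, of which 57.1% were below 0, and 57 members lay below the median of all genes. Of the 55 strongly expressed members, 46 were below 0 with spike-in scaling and 41 with normexp, while 36.6% and 45.5% of the other genes at that level were.

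**Figure D2:**
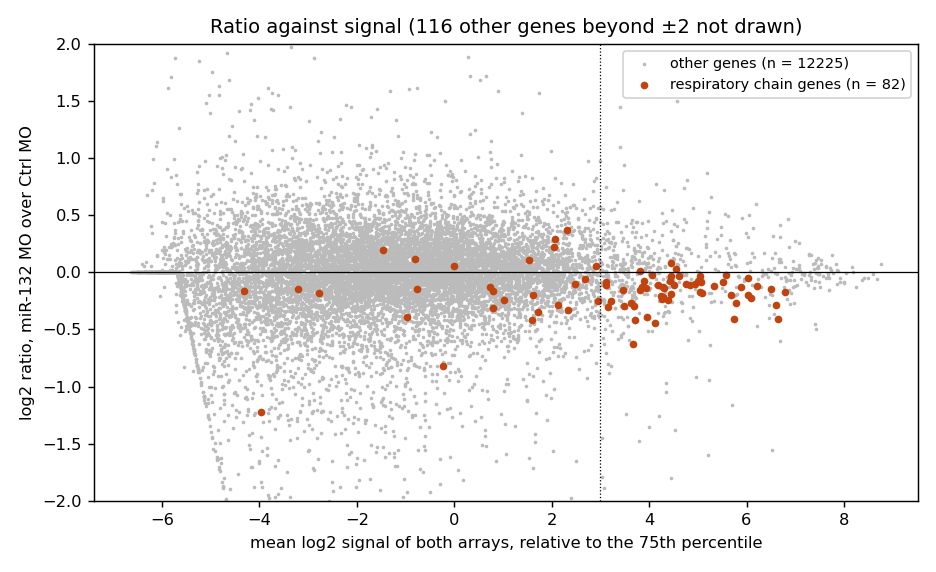
Ratio (log2, *miR-132* MO to Ctrl MO) against the mean log2 signal of both arrays, for 82 respiratory chain genes (red) and the other genes (grey); the dotted line marks a mean level of 3. To the right of it 52 of the 55 red points lie below 0, while the grey points lie evenly about 0 with 49.1% below; grey points on the line at the far left had no fold above background.

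Complex I, the NADH dehydrogenase through which most electrons enter the chain, had 30 of 32 genes below 0 and a median of -0.17. All 25 accessory subunits, which surround the catalytic core, were below 0, between -0.63 for *ndufa8* and -0.035 for *ndufc2*, with a median of -0.16. They included all 9 *ndufb* genes, which encode parts of the membrane arm and had a median of -0.12. Of the 7 genes for core subunits, 5 were below 0, with a median of -0.20. The medians of core and accessory subunits were closer to each other than the genes within either group.

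*ndufa8* encodes a cysteine-rich accessory subunit that faces the intermembrane space. Its probe read 11486 in Ctrl MO larvae and 8824 in *miR-132* morphants, a ratio of -0.63, or 1.54-fold lower. It was the gene closest to the threshold and rested on 1 probe, and with spike-in scaling its ratio was -0.57, under 1.5-fold. *ndufa2*, an accessory subunit of the NADH-oxidising arm, fell short of 1.5-fold on each of its probes. The first read 27230 in Ctrl MO larvae and 23229 in *miR-132* morphants, a ratio of -0.47, and the other read 8066 and 7211, a ratio of -0.41. *ndufab1a*, the acyl carrier protein that is also used in mitochondrial fatty acid synthesis, went from 2543 to 2256, a ratio of -0.42.

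The core subunits that carry the flavin and iron-sulfur clusters did not move together. *ndufv1*, which binds NADH and the flavin, had the highest ratio of complex I at 0.22, with its 3 probes at 0.02, 0.16 and 0.49. The probe at 0.49 was the dimmest, reading 589 in Ctrl MO larvae and 980 in *miR-132* morphants. *ndufs1*, which carries iron-sulfur clusters, was at 0.06, with its probes at -0.10 and 0.21, and fell below 0 with its brightest probe alone. *ndufv2* and *ndufs7* were at -0.27 and -0.20, each from 1 probe and below 0 in every setting run.

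*ndufs8* encodes a core subunit that holds iron-sulfur clusters, and the zebrafish has a pair of copies. The probe of *ndufs8a* read 6545 in Ctrl MO larvae and 7178 in *miR-132* morphants, a ratio of -0.11 after scaling. The probes of *ndufs8b* read 67.4 and 75.4 in Ctrl MO larvae and 30.4 and 43.3 in *miR-132* morphants. Both copies were thus below 0, but only *ndufs8b* was lower by more than 1.5-fold, at -1.22 with its probes at -1.40 and -1.05. This was the lowest ratio among all 82 genes. It was measured close to background: with normexp background correction it was -0.56, under 1.5-fold.

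Complex II, the succinate dehydrogenase that also works in the citric acid cycle, had 4 of 5 genes below 0 and a median of -0.15. *sdhb*, the iron-sulfur subunit, was at -0.25. Its brighter probe read 12467 in Ctrl MO larvae and 11147 in *miR-132* morphants, a ratio of -0.41, and the other read 3075 and 3435, a ratio of -0.09. The membrane anchor genes were at -0.33 for *sdhdb*, -0.15 for *sdhda* and -0.08 for *sdhc*. *sdha*, the flavoprotein that oxidises succinate, was at 0.11, but its 2 brighter probes were at -0.03 and -0.02 and only the dimmest, at 0.38, was above 0. With the brightest probe of each gene the median of the complex was -0.25. Both medians of the complex are the value of *sdhda*, a dim gene. Its probes read 137 and 50.3 in Ctrl MO larvae and 136 and 58.0 in *miR-132* morphants.

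Complex III, which passes electrons from ubiquinol to cytochrome c, had all 6 of its genes below 0 and the narrowest range, from -0.23 to -0.02, with a median of -0.099. With spike-in scaling this median was -0.039. The lowest was *uqcrc2b*, a core protein, whose probe read 15169 in Ctrl MO larvae and 15283 in *miR-132* morphants, a ratio of -0.23 after scaling. Its paralog *uqcrc2a* was at -0.02, with its probes at -0.04 and -0.0033. *uqcrh*, the hinge protein that binds cytochrome c1, was at -0.18. *uqcrc1*, the other core protein, was at -0.10, with its probes at -0.31, -0.22 and 0.24, and *uqcrq* was at -0.08. *uqcrc1* and *uqcrc2a* did not keep their sign in all settings, nor did *uqcrq*, which was at 0.14 with normexp.

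Complex IV, the cytochrome c oxidase that reduces oxygen, had the lowest median at -0.20, with 13 of 15 genes below 0. Its nuclear subunits surround a catalytic core of mitochondrial DNA origin, and several come as paralogs that, in mammals, are used in different tissues. In mammals *COX6A2* and *COX7A1* are the isoforms of heart and skeletal muscle. These genes lay at opposite ends of the complex in the zebrafish data.

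*cox6a2* was 1.77-fold lower in *miR-132* morphants. Its probes read 738 and 928 in Ctrl MO larvae and 529 and 581 in *miR-132* morphants, with ratios of -0.73 and -0.92 and a mean of -0.82. Over the alternative settings the mean lay between -0.92 and -0.76, so it stayed past 1.5-fold in each. Its paralog *cox6a1* read 58355 and 45349 in Ctrl MO larvae and 59758 and 47424 in *miR-132* morphants, with ratios of -0.21 and -0.18. The probe ratios of the paralogs did not overlap, and their means differed by 0.63. With so few probes per gene, most paralog pairs compared had no overlap, among them *sdhdb* and *sdhda*, whose means differed by 0.18.

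*cox7a1* had the highest ratio of the 82 genes. Its probe read 3204 in Ctrl MO larvae and 4927 in *miR-132* morphants, a ratio of 0.38, or 1.30-fold higher, and it was above 0 in every setting run, between 0.37 and 0.52. *cox7a2a*, its paralog, read 43848 and 43293, a ratio of -0.26, and *cox7a2l*, which in vertebrates helps to join complexes III and IV into supercomplexes, was at -0.21 and reached 0.06 with normexp. *cox5b2*, the only other complex IV gene above 0, was at 0.29, with its 3 probes at 0.23, 0.32 and 0.32. Before scaling it read 2450, 2739 and 3116 in Ctrl MO larvae and 3637, 4056 and 4342 in *miR-132* morphants. All 3 probes stayed higher after scaling.

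The other subunits of complex IV were lower or near 0. *cox6b1* was at -0.39 and its paralog *cox6b2* at -0.13, the latter reaching 0.08 with normexp. *cox4i2*, whose mammalian counterpart is the lung and hypoxia isoform of subunit 4, was at -0.31. *cox5aa* was at -0.22, with its probes at -0.21 and -0.23. *ndufa4a* and *ndufa4b*, named for complex I but now known as subunits of complex IV, were at -0.13 and -0.06.

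**Figure D3:**
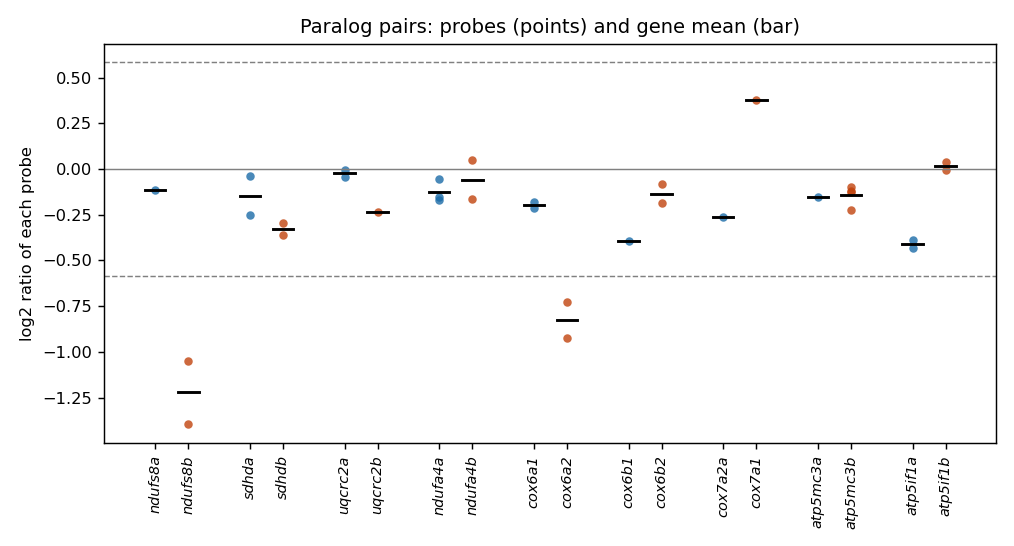
Ratio (log2, *miR-132* MO to Ctrl MO) of each probe (points) and the mean of each gene (bars) for 9 pairs of paralogs, with dashed lines at 1.5-fold. *ndufs8b* and *cox6a2* lie below the dashed line while *ndufs8a* and *cox6a1* are at -0.11 and -0.20, and *cox7a1* is at 0.38 against -0.26 for *cox7a2a*.

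Complex V, the ATP synthase, had 13 of 15 genes below 0 and a median of -0.11, which was -0.050 with spike-in scaling. The 4 measured genes of its catalytic head and central shaft had a median of -0.027. *atp5fa1*, the alpha subunit, was at 0.08, with all 4 probes above 0, between 0.03 and 0.15. *atp5f1b*, the catalytic beta subunit, was at -0.02, with 4 of its 5 probes between -0.12 and -0.06 and the dimmest at 0.24. *atp5f1c*, the gamma subunit of the central shaft, was at -0.03. *atp5f1d*, the delta subunit of that shaft, was at -0.17, below the median of the complex, with its probes at -0.15 and -0.19. Of the alpha, beta and gamma subunits, *atp5f1b* and *atp5f1c* did not keep their sign in all settings. The ratio of *atp5f1d* under the alternative settings is not reported here.

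The other 11 genes of complex V had a median of -0.12. The genes of the membrane-bound c ring, which turns as protons pass, were close together at -0.12 for *atp5mc1*, -0.14 for *atp5mc3b* and -0.15 for *atp5mc3a*, although *atp5mc3a* was at 0.030 with normexp. The lowest genes were those of the small membrane subunits g and e. *atp5l*, subunit g, read 148190 and 48221 in Ctrl MO larvae and 124992 and 45684 in *miR-132* morphants, with ratios of -0.49 and -0.32. *atp5mea*, subunit e, was at -0.29, with probes at -0.39 and -0.19. *atp5md*, a further small membrane subunit, was at 0.03.

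The genes for assembly factors and inhibitors that the name rule takes in were mixed in sign. Of 23 further assembly factors measured, counted below, 19 were below 0. Of 7 genes for assembly factors of complexes I and II, 4 were below 0, with a median of -0.12 and a range from -0.35 for *sdhaf3* to 0.20 for *ndufaf2*. *ndufaf7* had the widest spread between probes, at -0.68 and 0.32, and its mean of -0.18 lies between probes that disagree. *atp5if1a* and *atp5if1b* encode inhibitors that stop the ATP synthase from running backwards, and *atp5if1a* is known in zebrafish for its role in haem synthesis in red blood cells. *atp5if1a* read 45549 and 44617 in Ctrl MO larvae and 41210 and 39240 in *miR-132* morphants, with ratios of -0.39 and -0.43. *atp5if1b* was at 0.02, with its probes at -0.01 and 0.04, so the paralogs differed by 0.43. Their probes did not overlap, as in most paralog pairs compared.

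The ranges of all 5 complexes overlapped. The lowest median was -0.20 for complex IV and the highest -0.099 for complex III, whereas the quartiles of complex I alone ran from -0.29 to -0.11 and those of complex III from -0.16 to -0.088. No order among the complexes is read from these arrays.

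Other mitochondrial genes were counted in the same way, beside 49.9% of all genes below 0. The 65 genes of the mitochondrial ribosome, which translates the subunits of mitochondrial DNA, had a median of -0.14, with 51 below 0 and 0 past 1.5-fold. Cytochrome c (*cycsb*), the carrier between complexes III and IV, was at -0.19, and cytochrome c1 (*cyc1*), a complex III subunit that the name rule does not take in, was at -0.10. In a list of 33 further assembly factors, the 23 measured had a median of -0.11, with 19 below 0 and 0 past 1.5-fold. Of 7 measured genes that control mitochondrial biogenesis, of 13 listed, 6 were below 0. Among them were *tfam*, the packaging and transcription factor of mitochondrial DNA, at -0.36 from 1 probe, and *nrf1*, in mammals a transcription factor for respiratory genes, at -0.06. *gabpa* was at -0.10, but its 4 probes ran from -1.14 to 0.51. *tfb1m* was at -0.12, with its 3 probes from -0.37 to 0.09. The gene above 0 was *esrra*, at 0.26 from 1 probe.

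Genes of the matrix and of ATP export lay closer to 0 when probes were averaged. The 15 measured genes of the citric acid cycle and pyruvate dehydrogenase, of 18 listed, had a median of 0.02, with 7 below 0. The median was -0.090 when the brightest probe of each gene was used. The gene at least 1.5-fold higher was *cs* (citrate synthase) at 0.59, whose 3 probes spread from -0.20 to 1.63. The other past 1.5-fold was *pdha1b*, a pyruvate dehydrogenase subunit, at -0.84 from 1 probe, while its paralog *pdha1a* was at 0.14. The 13 measured genes for ATP export and uncoupling, of 14 listed, had a median of -0.037, with 7 below 0. This median was -0.13 with the brightest probes and 0.023 with spike-in scaling. In that list *slc25a3a*, a carrier of the phosphate used by the ATP synthase, was at -1.48 from 1 probe, and its paralog *slc25a3b* was at 0.03 from 4. Of 6 measured mitochondrial chaperone and protease genes, 4 were below 0, with a median of -0.048 and *hspa9*, a chaperone of the HSP70 family, at -0.47. The median of this list was 0.012 with spike-in scaling, -0.11 with normexp and -0.20 with the brightest probes.

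**Figure D4:**
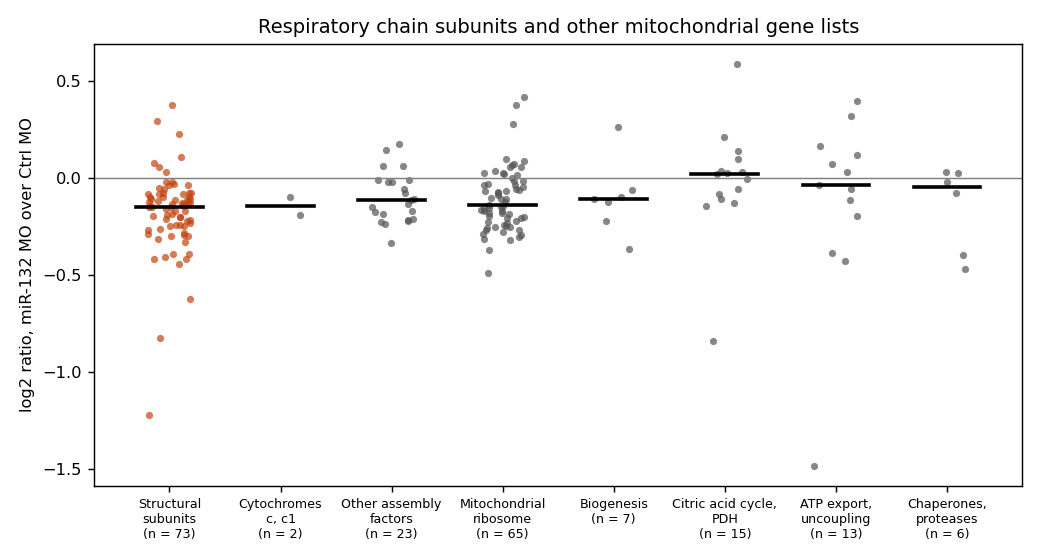
Ratio (log2, *miR-132* MO to Ctrl MO) for each gene (points) of the structural subunits of the respiratory chain (red) and of 7 other mitochondrial gene lists (grey), with the median of each list as a bar. Medians are -0.15 for the subunits and -0.14 for the mitochondrial ribosome, against 0.02 for the citric acid cycle list.

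Marker genes of cell types rich in mitochondria, and of the pancreas, differed between the arrays to different degrees, and none of the markers measured was below background on either array. All 7 photoreceptor markers were at least 1.5-fold lower, with a median of -1.59, and their summed linear level relative to the 75th percentile went from 117 to 37.7. All 3 measured exocrine pancreas markers were lower, with a median of -2.89 and a summed level of 29.6 and 3.66. The 7 measured skeletal muscle markers had a median of -0.05, with 4 below 0 and a summed level of 898 in Ctrl MO larvae and 832 in *miR-132* morphants. They diverged, from *actc1b* at -0.45 to *ckma* at 0.40 and *ckmb* at 0.55, with wide spreads between probes. The probes ran from -0.91 to -0.10 for *actc1b*, 0.08 to 0.72 for *ckma* and 0.05 to 0.97 for *ckmb*. The 4 measured heart markers had a median of 0.13 and a summed level of 4.69 and 5.29. Of these, *nppa* was more than 1.5-fold higher, at 0.76, and the others lay between -0.02 for *myl4* and 0.23 for *myl7*. The 6 ionocyte markers had a median of -0.035, with 3 below 0 and a summed level of 20.9 and 18.8. Most of this sum came from *atp6v1aa*, at -0.10. The other ionocyte markers diverged, with *slc12a10.2* at -0.93 and *ca2* at -0.56, while *foxi3a*, *foxi3b* and *trpv6* were between 0.03 and 0.14. The 4 neuron markers had a median of -0.26, with 3 below 0 and *elavl3* at 0.10, and a summed level of 39.3 and 33.7. The part of these cell types in the ratios of the respiratory chain genes was not tested.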

How the data were processed

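Total RNA of whole zebrafish at 3 dpf was hybridised to 1 one-colour array per group, and the groups were taken from the labels. The authors deposited the processed intensity of each spot as written by Agilent Feature Extraction 10.7 (named in the submitters' processing notes), background-subtracted and not normalized between arrays. The authors' table of selected probes holds their own fold changes and was not used, nor was a rounded copy of the scanner values. A planned check of gene names on the array could not be made, since the scanner files hold accessions only, and probe, promoter and protein sequences were not used here.

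Log2 processed intensity, less the array's 75th percentile over transcript spots, was averaged over spots of a probe and probes of a gene. Probes flagged as outliers were left out, and probes well above background on neither array were dropped, with the dim side set to no less than the lowest intensity above background. This left 38530 of 43603 probes. Of all probes, 25069 were named through RefSeq accessions without versions and the gene table of assembly GRCz12tu. The array was designed on another build, so no coordinates are given. Genes past 1.5-fold were counted, the threshold of the authors' table. There is no test, since each group is 1 array.

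Genes named in the text were every member past 1.5-fold, the 2 highest and 2 lowest of each complex, complex II, core and catalytic subunits, and tissue isoforms, except for values not reported here. Others were chosen after their values were seen: *ndufa2*, *ndufab1a*, *ndufb2*, *ndufc2*, *atp5f1d*, *ndufa4a*, *ndufa4b*, the assembly factors, the inhibitors and the genes of other lists. The members and lists were chosen with earlier results of these data known. The code was tested on simulated arrays with known changes, each larger than 1.5-fold. Differences as small as those of most members were not part of that test. The tools were limma 3.58.1 in R 4.3.3 and, in Python 3.11.15, numpy 2.4.6 and pandas 2.3.3, with loess from statsmodels 0.14.6 and plots from matplotlib 3.10.9.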

Additional observations from a re-analysis of the deposited data

How the results depend on the processing

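No paired analysis was possible because there is 1 array per group. A median was taken to have moved when it changed by more than the spread that spot noise gives a median of that many genes. With spike-in scaling, which raises every ratio by the same constant, the medians were -0.087 for all members, -0.11 for complex I, -0.086 for II, -0.039 for III, -0.14 for IV and -0.050 for V. There the list medians were -0.053 for assembly factors, 0.079 for the citric acid cycle, -0.051 for biogenesis, 0.023 for ATP export, -0.079 for the mitochondrial ribosome and 0.012 for chaperones. Quantile normalization gave -0.12 for all members and -0.11 for the mitochondrial ribosome. Normexp, run on the median signal because the files hold no mean signal, gave -0.13 for all members, -0.21 for complex II, -0.16 for complex IV, -0.056 for assembly factors, -0.17 for biogenesis, -0.073 for ATP export and -0.11 for chaperones. The brightest probe gave -0.25 for complex II, -0.15 for assembly factors, -0.090 for the citric acid cycle, -0.13 for ATP export, -0.17 for the mitochondrial ribosome and -0.20 for chaperones. The median of probes gave -0.052 for the citric acid cycle. Beyond the constant of the spike-in scaling, the cause was not tested. All medians of the 5 complexes stayed below 0 in these settings, while those of the citric acid cycle, ATP export and chaperone lists changed sign in some. The number of members at least 1.5-fold lower was 3, beside 940 of all genes. It was 2 with spike-in scaling, 2 with normexp and 4 with the brightest probe, beside 791, 573 and 1033 of all genes. At 2-fold it was 1. Counted singly, 6 of the 140 member probes were lower by 1.5-fold: those of *ndufs8b*, *cox6a2* and *ndufa8*, and 1 of *ndufaf7*. The shares over all genes at 2-fold and over all probes are not reported here. Among 333 values of named genes under the alternatives, 24 moved by more than the SD of a single spot and 0 past 1.5-fold changed sign. Of the 24, normexp gave 14, the brightest probe 8 and the median of probes 2. Many of the 333 could not move. The background filter settings returned the main values, since all member probes were well above background on both arrays. Genes with 1 probe could not move under the brightest probe or the median of probes. Spike-in and median scaling add a constant smaller than the SD of a single spot. The genes *uqcrq*, *uqcrc1*, *uqcrc2a*, *cox7a2l*, *cox6b2*, *atp5mc3a*, *atp5f1b*, *atp5f1c*, *ndufs1* and *sdha*, all under 1.5-fold, changed sign in at least 1 setting. Bright members (55 genes at a level of 3 or more), an alternative chosen after seeing the data, differed in the median from other genes of that level by between -0.16 and -0.12 over all settings. Matching by accession only is the same as the main setting here, and the planned promoter motif was not run. The limit of these arrays is 1 array per group.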

Other observations

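Probes of the same gene did not give the same ratio at all intensities. In 28 of the 41 respiratory chain genes with 2 or more probes, the dimmest probe had a higher ratio than the brightest, with a median difference of 0.059. Among 10 genes whose probes differed by 2 or more in log2 level, this held in 8, with a median difference of 0.21. Examples are *sdha*, *uqcrc1* and *atp5f1b*, each with its dimmest probe above 0 and its brightest below 0. Other genes on the arrays showed the same: the dimmest probe was higher in 4267 of 6735 genes (63.4%), with a median difference of 0.089, and in 2646 of 3851 (68.7%) with a gap of 2 or more, with a median difference of 0.15.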
